A study of Mus musculus with 15 samples.

Results

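Of the 34910 genes in the summed count table, 10 genes that act on actin filaments or on their contraction are described here, and all 10 passed the filter on low counts. They are Gsn (gelsolin), Efhd2 (an EF-hand protein that binds actin), Myl9 (a regulatory light chain of myosin II), Cald1 (caldesmon), Tagln (transgelin), Acta2 (smooth muscle actin), Tpm1 and Tpm2 (tropomyosins), Pdlim3 (a PDZ and LIM protein that binds alpha-actinin) and Cdc42ep3 (an effector of the GTPase Cdc42). The genes were picked by function and by earlier results of these data. The values known to have entered the choice are the differences of shLINE_Orf1 and shLINE_Orf2 from shControl, so comparisons of the 10 genes with shControl are given as a description, without their p-values. Pairs without shControl that include shLINE_Orf1 or shLINE_Orf2 still use libraries that entered the choice, so their p-values are not free of it. Only shLINE_Orf1+LINE-1 against shLINE_MdV_I uses neither.

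RNA was measured in 15 libraries of wild type mouse neural progenitor cells, which divide and give rise to neurons and glia, with 3 libraries in each of 5 groups. All cells were grown with FGF2, EGF and heparin, received a plasmid with EGFP and a short hairpin RNA (a small RNA that lowers transcripts of matching sequence), and were sorted as GFP+ cells 3 days later. The groups are the control hairpin shControl, the hairpins shLINE_Orf1, shLINE_Orf2 and shLINE_MdV_I against LINE-1 (a retrotransposon that is present in many copies), and shLINE_Orf1+LINE-1, in which cells got shLINE_Orf1 and also a full-length LINE-1. The series targets young and old LINE-1, and its text ties the added LINE-1 to the hairpin against young LINE-1, which makes shLINE_Orf1 that hairpin. The labels do not say which ages the other hairpins target or whether replicates came from separate cultures. The p-values therefore measure only the spread between these libraries, which may be technical, and LINE-1 RNA itself was not analysed here.

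Libraries held between 39204327 and 51070601 gene counts. Replicate 1 of shLINE_Orf1 and replicate 2 of shControl stood apart on the first principal component, at 75.9 and 24.3 against at most 4.72 in the others, and had the highest mitochondrial shares of counts, 3.61% and 2.02%. The summed level of 10 neural progenitor markers lay between 6064 and 9846 CPM (counts relative to library size, scaled for library composition). The 12 markers of mural and smooth muscle cells, which use many of these genes heavily, summed to 49.7 to 148 CPM. That sum came mostly from Cspg4 and Notch3, which neural progenitors also express. The defining mural genes were near 0: Pdgfrb was at most 0.322 CPM, Myh11 at most 0.323, Cnn1 at most 0.586 and Des at most 0.494. The 10 fibroblast markers summed to 25.8 to 59.9 CPM, mostly from Fbln1, with group means of 26.9 to 38.8, and Pdgfra, with group means of 9.43 to 21.3; Dcn was at most 0.0804 and Lum at most 0.0215. Replicate 1 of shLINE_Orf1 had the lowest sum of both lists.

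Actin filaments are assembled and taken apart all the time, and non-muscle myosin II pulls on them to give a cell tension. Gelsolin cuts filaments and caps their ends when calcium rises, whereas tropomyosins and caldesmon lie along the filament and control which proteins reach it. Phosphorylated regulatory light chains switch on myosin II, and PDZ and LIM proteins and Cdc42 effectors link filaments to adhesions and to the GTPase signals that shape them. Many contractile genes are known targets of serum response factor, which binds the CArG box, and of TEAD factors, which bind CATTCC.

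The promoters of the 3 genes whose values separate the groups most clearly are shown first, to give the sequence at their starts. They were copied from RefSeq (GRCm38.p6) and run from 250 bases before the annotated start to 50 after it. Capitals mark a CArG box or a CATTCC on either strand (GGAATG on the other strand); the Gsn window holds neither. The Gsn window is chr2:35256109-35256408 on the plus strand, where transcripts with 94.5% of the Gsn counts begin. The Myl9 window is chr2:156775214-156775513 on the plus strand, and the Pdlim3 window is chr8:45885237-45885536 on the plus strand.
Gsn: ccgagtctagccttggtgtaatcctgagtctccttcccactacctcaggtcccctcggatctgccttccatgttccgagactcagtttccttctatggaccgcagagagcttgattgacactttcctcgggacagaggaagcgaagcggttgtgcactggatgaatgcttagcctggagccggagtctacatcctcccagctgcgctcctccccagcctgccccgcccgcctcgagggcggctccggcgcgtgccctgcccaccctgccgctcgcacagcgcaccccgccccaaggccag
Myl9: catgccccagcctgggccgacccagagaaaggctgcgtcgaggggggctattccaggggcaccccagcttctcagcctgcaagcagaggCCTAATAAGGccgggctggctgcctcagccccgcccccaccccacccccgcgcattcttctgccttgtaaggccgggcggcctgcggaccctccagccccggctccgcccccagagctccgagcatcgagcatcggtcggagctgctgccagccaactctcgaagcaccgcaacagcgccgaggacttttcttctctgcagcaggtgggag
Pdlim3: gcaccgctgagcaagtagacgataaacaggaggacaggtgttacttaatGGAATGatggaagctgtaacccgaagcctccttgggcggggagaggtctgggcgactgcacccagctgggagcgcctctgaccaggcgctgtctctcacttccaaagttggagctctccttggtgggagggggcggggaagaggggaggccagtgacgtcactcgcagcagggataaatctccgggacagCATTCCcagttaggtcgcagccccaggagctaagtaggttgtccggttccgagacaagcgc

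The CArG box was searched only in its strict form, with nothing but A or T between CC and GG. Looser forms were not searched. The strict form was found in 1 of 12 windows, which cover 9 of the 10 genes. That was the Myl9 window, with the match 161 bases before the start. Of all 32851 windows in the RefSeq table, 1.63% held it. The CATTCC motif was found in 5 of the 12 windows and in 14.7% of all windows. In Pdlim3 it lay 201 and 11 bases before the start. In Efhd2, Cald1, Acta2 and Tpm1 it lay 159, 153, 146 and 56 bases before a start. The Cald1 match is in the window where transcripts with 12.3% of Cald1 counts begin, and the window with 87.4% held none. The Tpm1 window covers the starts of transcripts with 34.2% of Tpm1 counts. Tagln had no entry in the RefSeq table. A match describes the letters of these windows only.

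Levels of the 10 genes spanned a wide range, and the genes best known from smooth muscle were among the lowest. On a scale that corrects for transcript length (TPM), Tpm1 was the highest at a mean of 253 over the 15 libraries, followed by Cald1 at 55.6, Myl9 at 34.0 and Gsn at 26.1. Cdc42ep3 stood at 14.3, Efhd2 at 12.7 and Acta2 at 8.99 TPM, and Tpm2, Tagln and Pdlim3 were the lowest at 3.68, 2.65 and 2.49 TPM. Relatives with the same broad task were more abundant: cytoplasmic actin Actb stood at 8407 TPM, the light chain Myl12a at 337, Tagln2 at 331, and Tpm3 and Tpm4 at 321 and 353. Reads of Acta2 can be shared with the near-identical actins, and those of the tropomyosins with each other, so the split between these genes is uncertain.

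**Figure D1:**
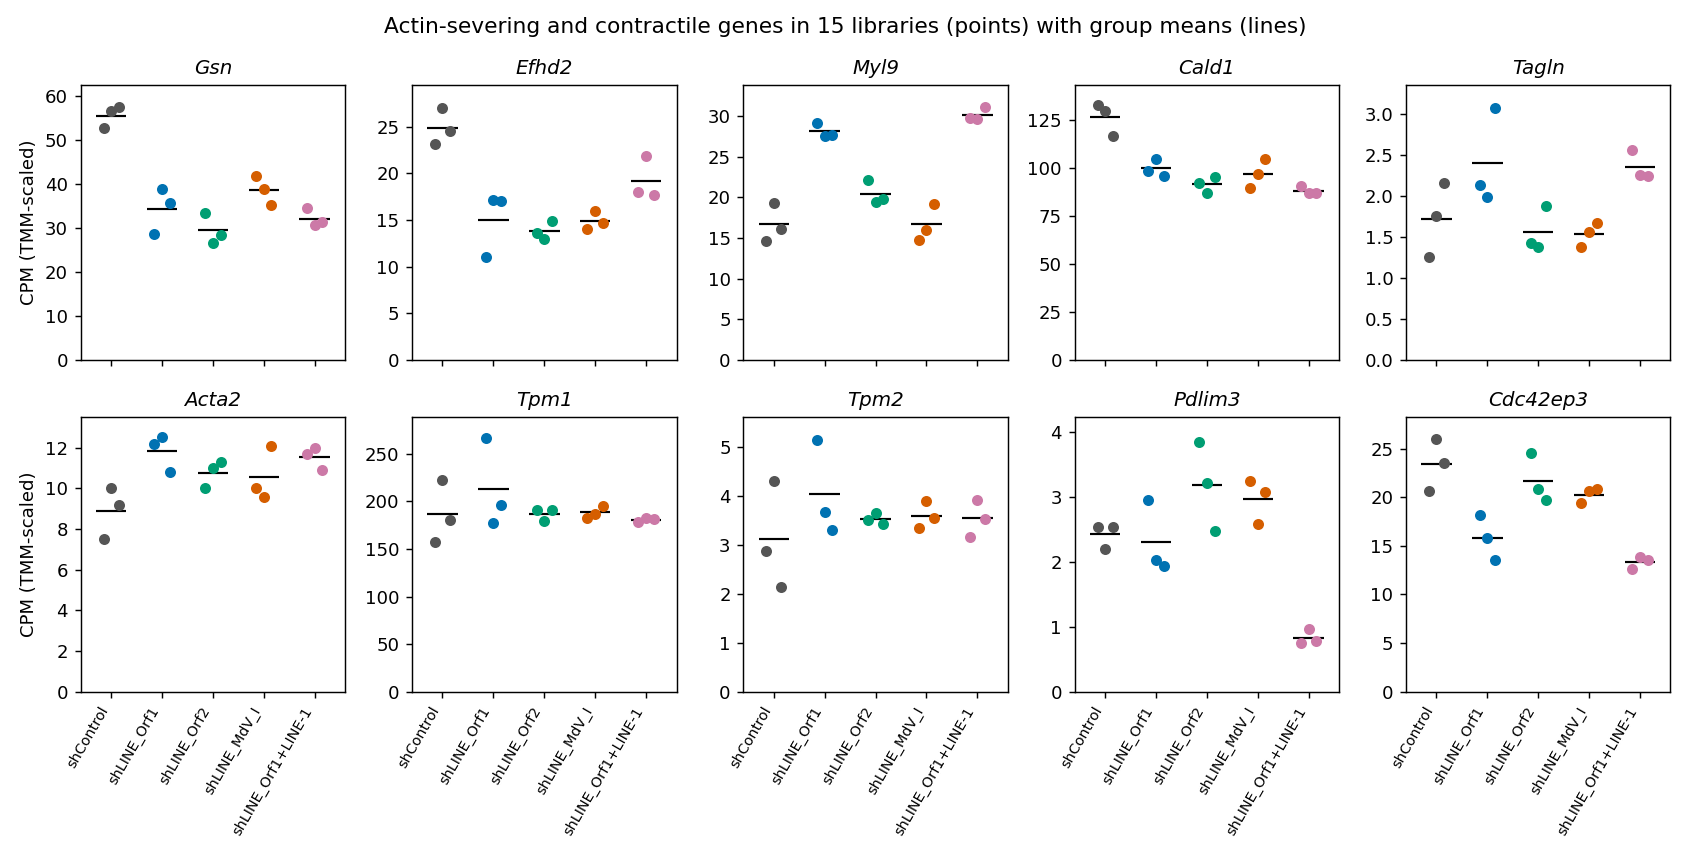
Level of each gene in CPM (vertical axis, linear, from 0) in the 15 libraries (points) of the 5 groups (horizontal axis), with group means as lines. Gsn and Cald1 were highest in all 3 shControl libraries, Myl9 was highest in the groups that received shLINE_Orf1, and Pdlim3 was lowest in all 3 libraries of shLINE_Orf1+LINE-1.

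Gsn (ENSMUSG00000026879.14, chromosome 2, 35256380 to 35307892, plus strand) encodes the severing protein. It stood at 52.6, 56.5 and 57.4 CPM in shControl, at 28.6, 38.9 and 35.6 in shLINE_Orf1, at 33.3, 26.6 and 28.3 in shLINE_Orf2, at 41.7, 38.8 and 35.1 in shLINE_MdV_I and at 34.4, 30.6 and 31.3 in shLINE_Orf1+LINE-1. All 3 control libraries lay above all 12 others, a separation shown by 3 of the 10 genes (Gsn, Efhd2 and Cald1) and by 0.396% of all genes tested, from which nothing is read since these comparisons chose genes. The log2 difference from shControl was -0.69 ± 0.12 (SE, n = 3 per group) in shLINE_Orf1, -0.92 ± 0.12 in shLINE_Orf2, -0.53 ± 0.12 in shLINE_MdV_I and -0.79 ± 0.12 in shLINE_Orf1+LINE-1. These 4 comparisons share the control libraries, and in such bulk samples fewer cells of a type and less RNA per cell cannot be told apart. Without the 2 libraries that stand apart, the 4 differences were -0.57, -0.903, -0.51 and -0.77.

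Of the 10 pairs of groups, edgeR called Gsn in 3, all against shControl, DESeq2 in 4 and limma-voom in 7. Differences from shControl entered the choice of Gsn, so nothing is read from the calls against shControl. The widest gap without shControl was between shLINE_MdV_I and shLINE_Orf2, 0.39 ± 0.12 on the log2 scale, with an adjusted p of 0.442 by edgeR's quasi-likelihood test, and limma-voom called it. Adding LINE-1 to shLINE_Orf1 moved Gsn by -0.10 on the log2 scale, with a 95% interval from -0.34 to 0.14. The annotation has 7 Gsn transcripts. Gsn-205, a protein of 731 residues, held 89.8% of the counts, and Gsn-201, the 780-residue form that starts at another promoter, held 5.54%. The share of Gsn-201 was 7.74% ± 3.09 (SD, n = 3) in shControl and between 3.63% and 6.34% in the other groups' means, with overlapping libraries.

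Efhd2 (ENSMUSG00000040659.3, chromosome 4, 141858142 to 141874920, minus strand) encodes a calcium-binding actin protein and has 1 annotated transcript. Its level was 23.1, 27 and 24.5 CPM in shControl, 11, 17.1 and 17 in shLINE_Orf1, 13.6, 12.9 and 14.9 in shLINE_Orf2, 14, 16 and 14.7 in shLINE_MdV_I and 18, 21.8 and 17.7 in shLINE_Orf1+LINE-1. As for Gsn, no library with a LINE-1 hairpin reached the control range, and those of shLINE_Orf1+LINE-1 came nearest to it. The log2 difference from shControl was -0.73 ± 0.15 in shLINE_Orf1, -0.85 ± 0.15 in shLINE_Orf2, -0.74 ± 0.15 in shLINE_MdV_I and -0.38 ± 0.15 in shLINE_Orf1+LINE-1. Without the 2 libraries that stand apart, the 4 differences were -0.485, -0.785, -0.675 and -0.306. In shLINE_MdV_I, 6 of 7 neuron markers tested were above shControl (median 0.51), with Snap25 called at 0.83 ± 0.15, and their part was not tested. The direct difference between shLINE_Orf1+LINE-1 and shLINE_Orf1 was 0.35 ± 0.15 and did not pass edgeR's test, with an adjusted p of 0.422.

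Cald1 (ENSMUSG00000029761.16, chromosome 6, 34598500 to 34775473, plus strand) encodes caldesmon, which binds actin and myosin. It stood at 133, 130 and 117 CPM in shControl, at 98.7, 105 and 96.0 in shLINE_Orf1, at 92.5, 87.0 and 95.3 in shLINE_Orf2, at 89.7, 96.8 and 105 in shLINE_MdV_I and at 90.7, 86.9 and 86.8 in shLINE_Orf1+LINE-1. Here too the control libraries were above all 12 others. The log2 differences from shControl were smaller than those of Gsn, from -0.35 ± 0.09 in shLINE_Orf1 to -0.53 ± 0.09 in shLINE_Orf1+LINE-1. Cald1-203, a 530-residue form, held 86.0% of Cald1 counts, and Cald1-211 held 8.38%. The long 768-residue form Cald1-205 held 2.15%. Over the 15 libraries the Pearson correlation of Gsn and Cald1 in log2 CPM was 0.823, and within groups it was -0.0741, so the likeness comes from the differences between groups.

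Myl9 (ENSMUSG00000067818.6, chromosome 2, 156775420 to 156781658, plus strand) was the gene with the clearest split between hairpins. Its level was 14.6, 19.3 and 16.1 CPM in shControl, 29.2, 27.5 and 27.7 in shLINE_Orf1, 22.1, 19.4 and 19.8 in shLINE_Orf2, 14.8, 16.0 and 19.2 in shLINE_MdV_I and 29.8, 29.7 and 31.1 in shLINE_Orf1+LINE-1. The 6 libraries that received shLINE_Orf1 lay between 27.5 and 31.1 CPM, above all 9 others, whose highest was 22.1. Of all genes tested, 0.429% showed this separation. Some of these libraries entered the choice of Myl9, so nothing is read from this share. The log2 difference from shControl was 0.75 ± 0.12 in shLINE_Orf1, 0.86 ± 0.12 in shLINE_Orf1+LINE-1, 0.29 ± 0.12 in shLINE_Orf2 and 0.00012 ± 0.12 in shLINE_MdV_I.

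Compared directly, without shControl, Myl9 was lower by 0.75 ± 0.12 on the log2 scale in shLINE_MdV_I than in shLINE_Orf1. This comparison uses the shLINE_Orf1 libraries whose high Myl9 entered the choice, so it is given without a p-value. Without the 2 libraries that stand apart the difference was -0.72. In the same comparison, markers of other cells moved: 7 of 7 neuron markers tested were higher in shLINE_MdV_I (median log2 difference 0.69, Neurod1 called at 2.22 ± 0.47), and 7 of 8 astrocyte markers were lower (median -0.21, 0 called). Of the 4 fibroblast markers tested, 2 were higher and 2 lower (median -0.15), and Pdgfra alone was called, as higher by 1.17 ± 0.24. The summed neuron markers were 432 to 461 CPM in shLINE_MdV_I and 373 to 418 in shLINE_Orf1, mostly from Map2 (means 407 and 374). Neurod1 was low, with means of 1.05 and 0.222 CPM in these groups. The part of the markers in the Myl9 difference was not tested. Against shLINE_MdV_I, Myl9 rose by 0.86 ± 0.12 in shLINE_Orf1+LINE-1 (edgeR adjusted p = 0.00413), which held in all 16 alternative settings. This comparison was added after the Pdlim3 levels had been seen. There 0 of 7 neuron markers were higher in shLINE_Orf1+LINE-1 (median -0.67, 0 called), with a sum of 395 to 430 CPM, again mostly from Map2 (mean 391). Of the astrocyte markers, 6 of 8 were higher (median 0.23, 0 called). The part of these markers was not tested. Between shLINE_Orf2 and shLINE_Orf1 the difference was -0.46 ± 0.12, which edgeR did not call and DESeq2 did. Adding LINE-1 to shLINE_Orf1 moved Myl9 by 0.10, which did not pass, with an edgeR adjusted p of 0.665. The 2 other light chains of this kind, Myl12a and Myl12b, were called by edgeR in no comparison with shControl. In shLINE_Orf1 they stood at 0.265 ± 0.153 and 0.172 ± 0.148 on the log2 scale, with the same sign as Myl9. In shLINE_Orf1+LINE-1 they stood at 0.06 ± 0.15 and -0.08 ± 0.15.

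The remaining contractile genes, Tagln, Acta2, Tpm1 and Tpm2, were called by edgeR in 0 of the 10 pairs of groups, and by DESeq2 in 0. An unadjusted p under 0.05 was seen in 4 pairs for Tagln, 2 for Acta2 and 0 for either tropomyosin, and limma-voom called Tagln in 4 pairs. Tagln, at 1.25 to 3.07 CPM over all libraries, had a mean of 2.39 ± 0.59 (SD, n = 3) in shLINE_Orf1 and 2.35 ± 0.18 in shLINE_Orf1+LINE-1, against 1.72 ± 0.46 in shControl, 1.55 ± 0.28 in shLINE_Orf2 and 1.54 ± 0.15 in shLINE_MdV_I. Its order of groups resembles that of Myl9, and the correlation of both over the 15 libraries was 0.736, but 0.269 within groups. The largest difference without shControl, shLINE_MdV_I against shLINE_Orf1, was -0.64 ± 0.24 with an edgeR adjusted p of 0.242. The 4 pairs in which limma-voom called Tagln set a group with shLINE_Orf1 against shLINE_Orf2 or shLINE_MdV_I, and in each the groups with shLINE_Orf1 were higher. Tagln rests on 58 to 140 counts a library, and 16.4% of them were assigned to Tagln-203, a transcript with a retained intron. Its exons share 108 bases with the antisense gene Pcsk7 and 1241 with the antisense gene Gm48529, and since the labels do not say that strand was kept, reads of these genes cannot be told apart.

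Acta2 lay between 7.52 and 12.5 CPM. Its log2 difference from shControl was between 0.25 ± 0.13 and 0.41 ± 0.13 in the 4 groups, and no group separated from another past the test. Tpm1 ranged from 157 to 267 CPM and Tpm2 from 2.14 to 5.14. Both were highest in replicate 1 of shLINE_Orf1, and second highest in replicate 2 of shControl, the 2 libraries that stand apart, and their correlation was 0.70 over all libraries and 0.703 within groups. Tpm1 counts were divided among 3 main transcripts at 27.5%, 27.2% and 26.4%, which encode tropomyosins of 251, 284 and 248 residues. The part of library quality in these 2 genes was not tested.

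Pdlim3 (ENSMUSG00000031636.7, chromosome 8, 45885461 to 45919548, plus strand) was low in shLINE_Orf1+LINE-1. It stood at 2.53, 2.20 and 2.54 CPM in shControl, at 2.96, 2.03 and 1.93 in shLINE_Orf1, at 3.84, 3.22 and 2.47 in shLINE_Orf2, at 3.24, 2.58 and 3.08 in shLINE_MdV_I and at 0.748, 0.968 and 0.775 in shLINE_Orf1+LINE-1. All 3 libraries with added LINE-1 lay below all 12 others, which 0.885% of all genes tested did. Some of the 12 others entered the choice of genes, so nothing is read from this share. The 3 libraries with added LINE-1 held 35 to 50 Pdlim3 counts each. The log2 difference from shControl was -1.54 ± 0.23.

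Pdlim3 fell by 1.93 ± 0.23 on the log2 scale against shLINE_Orf2 (edgeR adjusted p = 0.00661) and by 1.83 ± 0.23 against shLINE_MdV_I (edgeR adjusted p = 0.00305). The comparison with shLINE_Orf2 uses libraries that entered the choice of genes. Both of these comparisons were added after the Pdlim3 levels had been seen and share the 3 libraries with added LINE-1. Against shLINE_Orf1, the hairpin it was combined with, the difference was -1.47 ± 0.23 with an edgeR adjusted p of 0.0968, which did not pass, and DESeq2 and limma-voom called it. Without the 2 libraries that stand apart it was -1.24, with an edgeR adjusted p of 0.398. The call against shLINE_Orf2 was lost without replicate 1 or replicate 3 of shLINE_Orf1+LINE-1, at edgeR adjusted p-values of 0.0851 and 0.0623. The call against shLINE_MdV_I held in 16 of 16 alternative settings. Against shLINE_Orf2, 5 of the 6 mural markers tested were lower in shLINE_Orf1+LINE-1 (median -0.46, 0 called). Against shLINE_MdV_I, 4 of the 6 were higher and 2 lower (median 0.11, 0 called). Against shLINE_Orf1, 3 were higher and 3 lower (median 0.01, 0 called). The part of the mural markers was not tested. The neuron markers against shLINE_MdV_I are given with Myl9. Between shControl, shLINE_Orf1, shLINE_Orf2 and shLINE_MdV_I edgeR called no pair for Pdlim3. Over all 10 pairs of groups edgeR called Pdlim3 in 3, DESeq2 in 4 and limma-voom in 5. The 5 include at least 1 pair without shLINE_Orf1+LINE-1. In the same gene family, Pdlim5 stood at a mean of 98.4 TPM and Pdlim4 at 71.9, and in shLINE_Orf1+LINE-1 their log2 differences from shControl were 0.14 ± 0.10 and 0.21 ± 0.14.

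Cdc42ep3 (ENSMUSG00000036533.9, chromosome 17, 79333727 to 79355091, minus strand) was lowest in the same group. Its level was 20.6, 26 and 23.5 CPM in shControl, 18.2, 15.8 and 13.5 in shLINE_Orf1, 24.5, 20.8 and 19.7 in shLINE_Orf2, 19.4, 20.6 and 20.8 in shLINE_MdV_I and 12.6, 13.9 and 13.5 in shLINE_Orf1+LINE-1. The groups that received shLINE_Orf1 were both below the other 3 groups, a separation that 0.159% of all genes tested showed, and their own ranges overlapped. Some of these libraries entered the choice of genes, so nothing is read from this share. Cdc42ep3 fell by 0.70 ± 0.13 on the log2 scale in shLINE_Orf1+LINE-1 against shLINE_Orf2 (edgeR adjusted p = 0.034) and by 0.60 ± 0.13 against shLINE_MdV_I (edgeR adjusted p = 0.0456). Both comparisons were added after the Pdlim3 levels had been seen. Libraries of shLINE_Orf2 entered the choice of genes, so the p-value against that group is not free of it. These calls are near the threshold: leaving out any 1 of the 6 libraries of the comparison with shLINE_MdV_I ended the call, with edgeR adjusted p-values of 0.127 to 0.231. Against shLINE_Orf2 it was kept only without replicate 3 of shLINE_Orf2, at 0.0347, and was otherwise 0.134 to 0.218. Its exons share 188 bases with the antisense gene Gm17315.

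**Figure D2:**
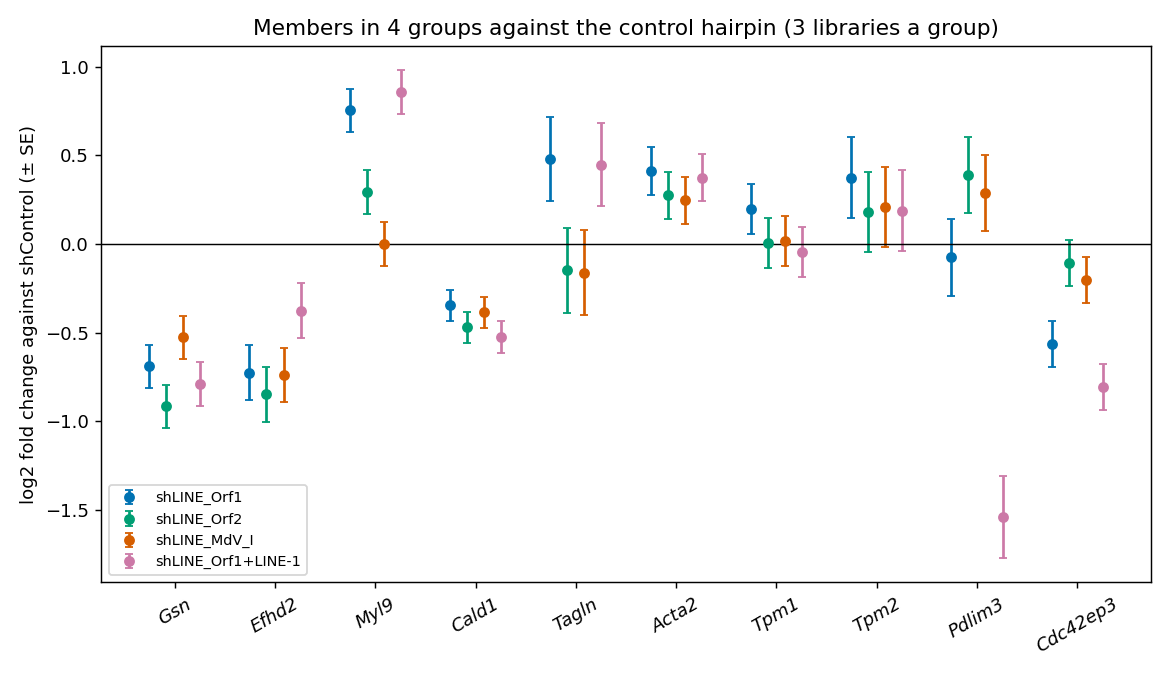
Log2 fold change against shControl (vertical axis, ± SE from the edgeR fit, 3 libraries a group) of the 10 genes (horizontal axis) in the other 4 groups (colours). Gsn, Efhd2 and Cald1 lie below 0 in all 4 groups, Myl9 is at 0.75 and 0.86 in the groups with shLINE_Orf1, and Pdlim3 is at -1.54 in shLINE_Orf1+LINE-1.

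Counts of calls set these genes beside all genes tested. At an adjusted p under 0.05, 2 of the 10 differed from shControl in shLINE_Orf1 (Gsn lower, Myl9 higher; 0.178% of all genes), 3 in shLINE_Orf2 (Gsn, Efhd2 and Cald1 lower; 0.192%), 1 in shLINE_MdV_I (Efhd2 lower; 0.594%) and 5 in shLINE_Orf1+LINE-1 (Myl9 higher, Gsn, Cald1, Pdlim3 and Cdc42ep3 lower; 0.139%). Since such comparisons chose genes of the set, nothing is read from these shares. The median log2 difference of the 10 genes was 0.06, -0.05, -0.08 and -0.21 in these 4 comparisons, beside -0.01, -0.01, -0.01 and -0.02 over all genes. In shLINE_Orf1 the count was 0 without replicate 1 or 3 of shControl or replicate 3 of shLINE_Orf1, 1 without replicate 2 of shControl and 3 without replicate 1 of shLINE_Orf1. In shLINE_Orf2 it was 0 without replicate 2 of shLINE_Orf2 and 1 without any other of the 6 libraries. In shLINE_MdV_I it was 0 without any 1 of its 6 libraries. In shLINE_Orf1+LINE-1 it was 4 without replicate 1 of shControl, 2 without replicate 2 and 0 without replicate 3 or any library of shLINE_Orf1+LINE-1.

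The 6 pairs without shControl gave fewer calls. Adding LINE-1 to shLINE_Orf1 gave 0 calls by edgeR, among the 10 and among all genes (0%). Of the 10, 2 had an unadjusted p under 0.05 (11.1% of all genes). DESeq2 and limma-voom each called 1 (Pdlim3), and limma-voom called 398 of all 15141 genes tested. The pair shLINE_Orf2 and shLINE_Orf1 likewise gave 0 by edgeR (0% of all genes) and 4 of the 10 at an unadjusted p under 0.05 (11.4% of all genes). DESeq2 called 1 of the 10 and limma-voom 5, where limma-voom called 841 of all 15141 genes tested. The pair shLINE_MdV_I and shLINE_Orf2 gave 0 by edgeR (0.112% of all genes) and 2 at an unadjusted p under 0.05 (5.45% of all genes). DESeq2 called 0 of the 10 and limma-voom 1, where limma-voom called 516 of all 15141 genes tested. Myl9 was the 1 gene called between shLINE_MdV_I and shLINE_Orf1 (0.687% of all genes), and the count was 0 without replicate 1 or replicate 2 of shLINE_MdV_I. The shLINE_Orf1 libraries, with their high Myl9, entered the choice of genes, so nothing is read from this call. Between shLINE_Orf1+LINE-1 and shLINE_Orf2, 2 of the 10 were called (0.238% of all genes), and between shLINE_Orf1+LINE-1 and shLINE_MdV_I, 3 (0.68%). Both pairs were added after the Pdlim3 levels had been seen, and libraries of shLINE_Orf2 entered the choice of genes. In the test of any difference among the 5 groups, 6 of the 10 were called (Gsn, Efhd2, Myl9, Cald1, Pdlim3 and Cdc42ep3; 0.944% of all genes), which includes the comparisons that chose genes.

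**Figure D3:**
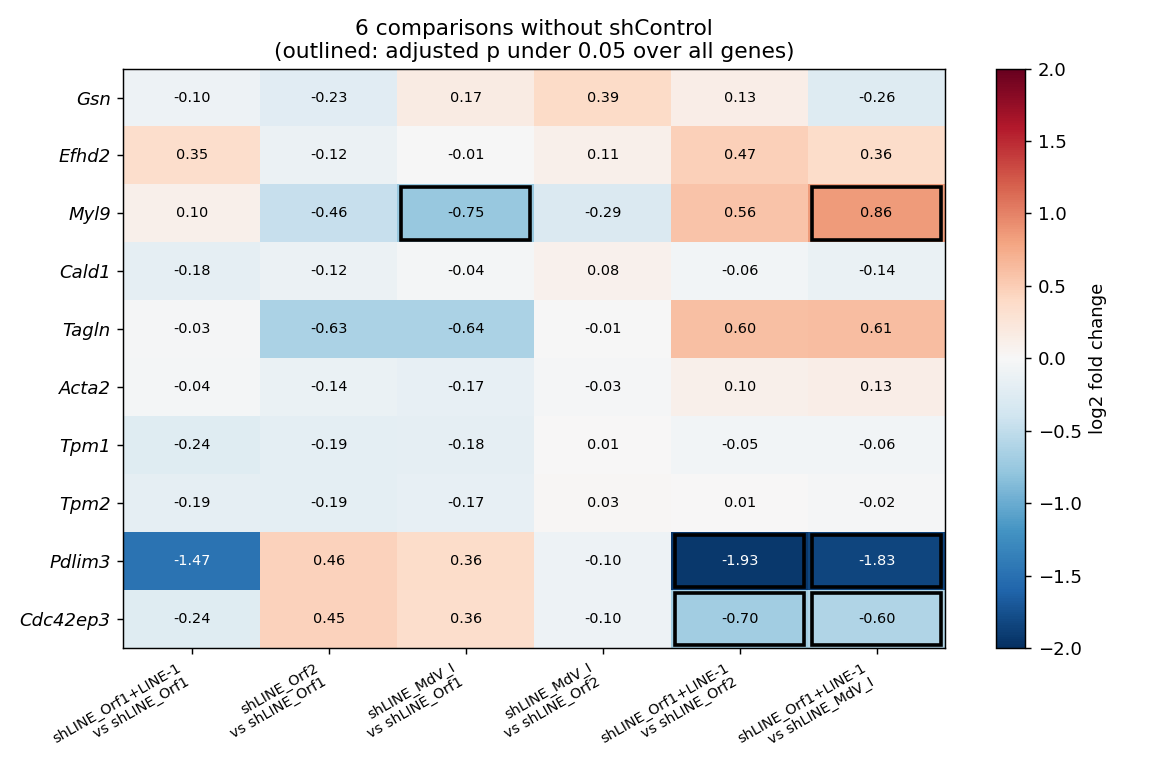
Log2 fold change of the 10 genes (vertical axis) in the 6 pairs of groups without shControl (horizontal axis), as colour and number; an outline marks an edgeR adjusted p under 0.05 over all genes tested. The 6 outlined cells belong to Myl9, Pdlim3 and Cdc42ep3, and 5 of them compare shLINE_Orf1+LINE-1 with another hairpin. The outlined Myl9 cell of shLINE_MdV_I against shLINE_Orf1 uses libraries whose Myl9 level entered the choice, so nothing is read from it.

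Other genes of actin severing, tropomyosins and calponins, myosin II, stress fibres, Cdc42 signalling and serum response factor were followed as lists with 124 genes in all, of which 115 were tested. Against shControl, 0 of the 115 were called in shLINE_Orf1, shLINE_Orf2 and shLINE_Orf1+LINE-1 by edgeR. In these groups 10, 11 and 14 had an unadjusted p under 0.05, beside 10.5%, 7.01% and 8.76% of all genes tested. DESeq2 called 2 in each and limma-voom 5 in each, where limma-voom called 613, 383 and 536 of all 15141 genes tested. In shLINE_MdV_I, 17 of the 115 had an unadjusted p under 0.05, beside 8.63% of all genes tested, and DESeq2 and limma-voom called 5 each. There edgeR called 1 of the 115, Efhd1, the relative of Efhd2, which fell by 0.68 ± 0.10 (edgeR adjusted p = 0.00422). Efhd1 is not among the 10 genes. Its log2 difference was -0.38 ± 0.10 in shLINE_Orf1, -0.43 ± 0.10 in shLINE_Orf2 and -0.44 ± 0.10 in shLINE_Orf1+LINE-1. None of these was called by edgeR, while DESeq2 called Efhd1 in each of them and in shLINE_MdV_I. In pairs without shControl, Pak3, a kinase that Cdc42 switches on, was the 1 gene of the lists that edgeR called. It fell by 0.68 ± 0.11 in shLINE_Orf1+LINE-1 against shLINE_Orf2 (edgeR adjusted p = 0.0192) and by 0.70 ± 0.11 against shLINE_MdV_I (edgeR adjusted p = 0.00785). Both comparisons were added after the Pdlim3 levels had been seen. DESeq2 also called Pak3 in shLINE_Orf2 and in shLINE_MdV_I against shLINE_Orf1, where its edgeR adjusted p-values were 0.21 and 0.0728. In shLINE_Orf1+LINE-1 against shLINE_Orf1, edgeR and DESeq2 did not call Pak3. Over the pairs without shControl, DESeq2 called 0 to 9 of the 115 and limma-voom 2 to 19. The 19 were in shLINE_Orf1+LINE-1 against shLINE_Orf2, where limma-voom called 1540 of all 15141 genes tested.

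**Figure D4:**
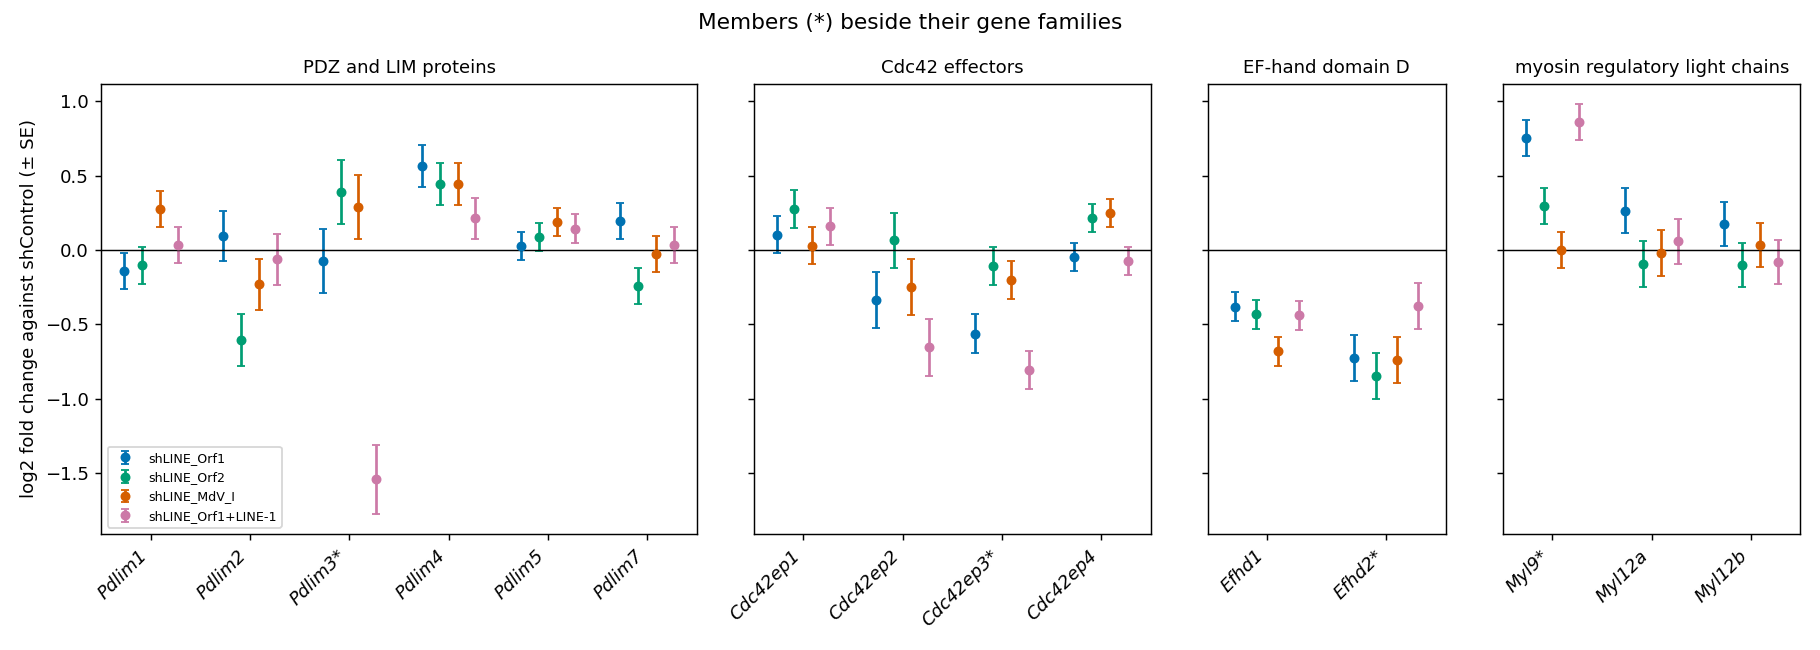
Log2 fold change against shControl (vertical axis, ± SE, 3 libraries a group) of Pdlim3, Cdc42ep3, Efhd2 and Myl9 (asterisks) beside the other tested genes of their families (horizontal axis) in 4 groups (colours). Efhd1 and Efhd2 both lie below 0 in all 4 groups, while Pdlim3 at -1.54 in shLINE_Orf1+LINE-1 stands below Pdlim4 at 0.21 and Pdlim5 at 0.14.

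The genes whose level followed Gsn most closely over the 15 libraries, among 9797 genes searched, were Mfge8 (Pearson r = 0.881), Rhoj (0.852), Ttc9 (0.847), Cald1 (0.823) and Uri1 (0.822). Within groups these correlations were between -0.0741 and 0.368. Those closest to Myl9 were Tuba1c (0.913), Plekhb1 (0.908), Pcp4l1 (0.891), Cryab (0.886) and Ephx1 (0.878), with 0.488 to 0.81 within groups. Among the 10 genes, Pdlim3 and Cdc42ep3 had a correlation of 0.797, and 0.57 within groups. Myl9 and Cdc42ep3 moved in opposite directions over all libraries, at -0.752, but together within groups, at 0.653. All of these values share the same 15 libraries, their depth and the 2 that stand apart, and are descriptions only.

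In the authors' deposited table, which models an effect of young LINE-1, the adjusted p-value was 1 for all 10 genes. Its estimate for Gsn was 1.21 with a standard error of 0.953, on a scale that the table does not name. For Efhd2 the authors' deposited table gives 0.47 with a standard error of 0.224, the lowest unadjusted p of the 10.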

How the data were processed

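RNA was measured in 15 libraries of sorted mouse neural progenitor cells. The authors deposited expected counts (estimated reads) per transcript without normalization; the submitters' processing notes name cutadapt, RSEM and mm10, and neither versions nor the annotation release are given in the sources used here. A second table deposited by the authors holds estimates, t scores and p-values per gene, per the file headers. Of 111462 transcripts, 110115 had a gene in GENCODE M21 (GRCm38). Their counts were summed to 34910 genes and rounded. Transcripts without a gene held 0.595% to 0.65% of counts and were left out, as was 1 blank row.

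Genes were filtered with filterByExpr (minimum count 10), which left 15141, and 1 model of 5 groups was fitted with edgeR 4.0.16 (R 4.3.3), TMM factors and robust quasi-likelihood tests. P-values were adjusted with Benjamini-Hochberg over all genes tested, and a gene was called under 0.05. Intervals are 1.96 SE to either side (95%). TPM was computed from transcript lengths, and a prior count of 2 was added for log2 CPM. The common biological coefficient of variation was 0.158. Same-numbered replicates did not deviate together. The smallest chi-square per degree of freedom between replicates was 7.32, so none was a repeat deposit. The script was tested on simulated data. DESeq2 1.42.0 and limma 3.58.1 were alternatives, with other scalings, filters, covariates and libraries left out. Tables and figures were made in Python 3.11.15 (pandas 2.3.3; numpy 2.4.6; matplotlib 3.10.9).

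The 10 genes and the gene lists were chosen with earlier results of these data known, and 2 of the 10 pairs of groups were added after Pdlim3 levels were seen. All 10 genes are named. From the actin lists, called genes are named, up to 6 per direction and comparison. The 5 genes most like Gsn and Myl9 are named by rule, and transcripts with at least 5% of a gene's counts could be named; those that bear on a result were. Relatives, Cald1-205 and single marker genes were named after their values were seen.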

Additional observations from a re-analysis of the deposited data

How the results depend on the processing

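No fold change called for the 10 genes changed sign in any alternative. Counts of the 10 genes called did change. Comparisons with shControl entered the choice of genes, so nothing is read from their counts. Against shControl, without a scaling factor they were 1 in shLINE_Orf1, 1 in shLINE_Orf2, 0 in shLINE_MdV_I and 3 in shLINE_Orf1+LINE-1; fitting only the compared groups gave 0, 1, 0 and 0. DESeq2 and limma-voom each gave 5 in shLINE_Orf1 and 3 in shLINE_MdV_I. In shLINE_Orf1, limma-voom called 613 of all 15141 genes tested. In shLINE_MdV_I the description number as a covariate gave 0, and leaving out the 2 libraries that stand apart gave 3. With the replicate number as a block, where same-numbered libraries correlated between -0.0585 and 0.0841 and so share only a number, the counts were 0 in shLINE_Orf1, 1 in shLINE_Orf2, 1 in shLINE_MdV_I and 0 in shLINE_Orf1+LINE-1 against shControl, 1 in shLINE_Orf1+LINE-1 against shLINE_Orf2 and 3 for any difference among the groups.

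Without shControl, DESeq2 and limma-voom gave 1 each for added LINE-1 against shLINE_Orf1, and 1 and 5 for shLINE_Orf2 against shLINE_Orf1. For shLINE_MdV_I against shLINE_Orf1, limma-voom gave 3 and the compared groups alone 0; against shLINE_Orf2, limma-voom gave 1. For shLINE_Orf1+LINE-1 against shLINE_Orf2, limma-voom gave 5, and the compared groups alone and the fit without the 2 libraries that stand apart gave 4 each. For shLINE_Orf1+LINE-1 against shLINE_MdV_I, limma-voom gave 6. Of all 15141 genes tested, limma-voom called 1540 and 1648 in these 2 pairs. It called 398 for added LINE-1 against shLINE_Orf1, 841 for shLINE_Orf2 against shLINE_Orf1 and 516 for shLINE_MdV_I against shLINE_Orf2.

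Leaving out 1 library at a time gave 0 to 3 calls in shLINE_Orf1, 0 to 1 in shLINE_Orf2, 0 to 0 in shLINE_MdV_I and 0 to 4 in shLINE_Orf1+LINE-1 against shControl. It gave 0 to 1 for shLINE_MdV_I against shLINE_Orf1, 0 to 2 and 2 to 2 for shLINE_Orf1+LINE-1 against shLINE_Orf2 and shLINE_MdV_I, and 3 to 6 for any difference. The cause of these changes was not tested, beyond the fewer libraries in such fits.

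Over all genes, calls against shControl were 27 in shLINE_Orf1 (1 to 613 over the alternatives), 29 in shLINE_Orf2 (3 to 383), 90 in shLINE_MdV_I (22 to 389) and 21 in shLINE_Orf1+LINE-1 (2 to 536). They were 0 for added LINE-1 against shLINE_Orf1 (0 to 398) and for shLINE_Orf2 against shLINE_Orf1 (0 to 841), 104 for shLINE_MdV_I against shLINE_Orf1 (0 to 2059) and 17 against shLINE_Orf2 (4 to 516). They were 36 and 103 for shLINE_Orf1+LINE-1 against shLINE_Orf2 (0 to 1540) and shLINE_MdV_I (20 to 1648), and 143 for any difference (23 to 1509). The limit of 35 to 50 counts applies to Pdlim3 in shLINE_Orf1+LINE-1.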
